A study of Mus musculus with 2 samples.

Results

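Microexons are very short exons, here internal exons of 3 to 30 nt. They were counted in long-read RNA sequencing of gastrocnemius, a fast-twitch calf muscle. They were chosen by their read counts: a microexon was kept when transcript models of annotated genes held it with 1 or more read in each library and 5 or more reads in sum. The rule kept 573 microexons in 498 genes, out of 92018 internal exons of any length that pass the same read minimum. Just inside the limit, 28 had 5 reads in sum, and just outside it 49 others read in both libraries had 4. A further 13 had 5 or more reads in 1 library and 0 in the other. An exon at the same place in the overlapping genes Nupl1 and Gm49336 is counted for each. Of the 573, 552 are exons of the GENCODE M21 mouse annotation and 21 are not. The animals were male mice of the strain B6CASTF1/J, an F1 hybrid of C57BL/6 and CAST/EiJ stocks, aged 10 days, with no treatment and no control group. The study holds 1 group of 2 libraries, replicate 1 and replicate 2, each made from 2 µg of total RNA of its own biosample per the labels. Nothing here compares conditions, ages or tissues, and p-values compare the reads of these libraries and cover counting error only. Replicate 1 held 1145490 mouse reads and replicate 2 held 941841. Muscle fibre markers (Acta1, Ckm, Myh4, Atp2a1 and Tnnc2) had 248715 and 246028 CPM (reads per 1000000 mouse reads) in sum. Markers of nerve and Schwann cells, another source of microexons, had 1888 and 1430.2 CPM over 17 genes, and the neuronal genes Nefl, Nefm, Snap25, Syt1, Elavl3 and Elavl4 had 0 reads in both libraries, while Stmn2 had 2 and 5 reads and Tubb3 1 and 0. The libraries differed in other markers: Myh4 had 23388 and 8871 CPM, 5 fibroblast genes 19650.1 and 11850.2 CPM in sum and 2 globin genes of red cells 317 and 674. The part of these differences in inclusion was not tested.

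As background, an exon as short as a few codons is hard for the splicing machinery to recognise, since factors that bind its start and its end compete for room. Microexons are best known from neurons, where the protein Srrm4 promotes their inclusion and where they alter surfaces through which proteins meet. Skeletal muscle and heart have their own set, in which RBFOX, MBNL and other RNA-binding proteins are known to act. A microexon whose length is divisible by 3 adds or removes whole codons and leaves the rest of the reading frame as it was. Inclusion is given here as the percentage of spanning reads that contain the exon, where a spanning read belongs to a model that holds the exon or has an intron across it.

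The exons on which the account turns are printed 5′ to 3′ in the sense of the gene, with the microexon in capitals and 9 bases of the neighbouring exons in an annotated transcript on each side in lower case. They come from the GENCODE M21 transcript sequences, and coordinates are those of the mm10 build. They were chosen because each is skipped in a measurable share of reads with many reads behind it, belongs to a pair read in the same molecules, or belongs to a family whose members share an exon of the same length.
Myl1 25 nt (chr1:66934518-66934542, minus strand): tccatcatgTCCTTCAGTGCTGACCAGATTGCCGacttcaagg
Myl1 28 nt (chr1:66934246-66934273, minus strand): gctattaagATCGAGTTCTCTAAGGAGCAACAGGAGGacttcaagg
Trdn 30 nt (chr10:33433701-33433730, plus strand): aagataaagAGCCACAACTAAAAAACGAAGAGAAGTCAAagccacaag
Ppp3ca 30 nt (chr3:136932011-136932040, plus strand): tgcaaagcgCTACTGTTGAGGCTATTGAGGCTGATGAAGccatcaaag
Ppp3cb 30 nt (chr14:20503247-20503276, minus strand): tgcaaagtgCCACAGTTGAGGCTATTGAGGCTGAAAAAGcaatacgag
Mef2a 24 nt (chr7:67244521-67244544, minus strand): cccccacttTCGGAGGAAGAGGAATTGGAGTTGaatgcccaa
Mef2d 21 nt (chr3:88161781-88161801, plus strand): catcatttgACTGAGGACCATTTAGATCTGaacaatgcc
Anxa6 18 nt (chr11:54987051-54987068, minus strand): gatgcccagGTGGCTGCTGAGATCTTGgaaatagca
Dnm2 30 nt (chr9:21487047-21487076, plus strand): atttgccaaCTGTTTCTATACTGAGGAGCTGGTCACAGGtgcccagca
Dnm2 12 nt (chr9:21490658-21490669, plus strand): cccaatcagGGGGAGATCTTGgtgatccgc
Dctn1 21 nt (chr6:83187764-83187784, plus strand): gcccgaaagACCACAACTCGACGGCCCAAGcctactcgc
Tmed2 21 nt (chr5:124543487-124543507, plus strand): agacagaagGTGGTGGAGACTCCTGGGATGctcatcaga
Tpd52 27 nt (chr3:8943551-8943577, minus strand): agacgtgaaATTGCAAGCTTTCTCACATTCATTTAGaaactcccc
Tpd52l2 27 nt (chr2:181510504-181510530, plus strand): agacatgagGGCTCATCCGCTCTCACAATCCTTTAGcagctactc
Mark2 27 nt (chr19:7279986-7280012, minus strand): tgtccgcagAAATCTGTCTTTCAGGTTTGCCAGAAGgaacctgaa
Mark3 27 nt (chr12:111651958-111651984, plus strand): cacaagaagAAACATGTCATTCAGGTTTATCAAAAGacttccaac
Car14 21 nt (chr3:95902111-95902131, minus strand): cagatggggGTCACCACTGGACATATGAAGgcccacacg
Car14 22 nt (chr3:95901459-95901480, minus strand): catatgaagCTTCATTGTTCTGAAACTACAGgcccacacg
Art3 30 nt (chr5:92412165-92412194, plus strand): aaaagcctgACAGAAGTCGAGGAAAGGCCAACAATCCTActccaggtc
Mtmr1 24 nt (chrX:71376887-71376910, plus strand): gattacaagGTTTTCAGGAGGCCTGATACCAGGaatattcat
Mtmr1 27 nt (chrX:71377604-71377630, plus strand): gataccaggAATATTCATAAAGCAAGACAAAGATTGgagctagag
Myh4 28 nt (chr11:67242141-67242168, plus strand): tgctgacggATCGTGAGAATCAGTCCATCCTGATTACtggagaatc
Myh1 28 nt (chr11:67203576-67203603, plus strand): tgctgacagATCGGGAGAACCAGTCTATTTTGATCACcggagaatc
Myh8 28 nt (chr11:67283252-67283279, plus strand): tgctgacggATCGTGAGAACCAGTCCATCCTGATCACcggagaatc
The 12-nt exon of Dnm2 is the shortest of the 573. The Ppp3ca and Ppp3cb exons have 26 identical bases of 30, the Mark2 and Mark3 exons 21 of 27 and the Tpd52 and Tpd52l2 exons 17 of 27. Both Myl1 exons join the same downstream sequence, and so do both Car14 exons in the transcripts shown.

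Most microexons with enough reads were in nearly every transcript, but skipping was more frequent than for longer exons. A total of 287 microexons in 237 genes had 20 or more spanning reads in each library. Of these, 188 (65.5%) were constitutive, defined as a mean inclusion above 95%. Another 89 (31%), in 79 genes, were variable, with an inclusion of 5% to 95%, and 10 (3.48%) were rare, with an inclusion under 5%. Over all 34737 internal exons with that many reads, 94.6% were constitutive, 4.76% variable and 0.593% rare. Internal exons of 31 to 60 nt lay between, with 9.83% variable among 3163. Within the microexons the variable share was 57.1% at 3 to 18 nt (8 of 14), 44.2% at 19 to 24 nt (38 of 86) and 23% at 25 to 30 nt (43 of 187). Just inside the length limit, 15 of 60 exons of 30 nt (25%) were variable, and just outside it 1 of 29 exons of 31 nt (3.45%). These lengths also differ in divisibility by 3, so the contrast is not one of the limit alone. Inside the limit, 0 of 47 exons of 29 nt and 1 of 55 of 28 nt were variable, against 19 of 98 of 27 nt. Those totals include exons with too few reads for a class. The read minimum acts on included reads, so exons skipped in nearly every read are under-represented in all these shares. Some annotated exons that no annotated intron skips had 0 including reads, although each library had 20 or more spanning reads. They were 5 of 5 at 3 to 9 nt and 5 of 14 at 10 to 18 nt. At 19 to 24 nt they were 5 of 55, and at 25 to 30 nt 0 of 129. The part of alignment and model building in the shares by length was not tested.

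Lengths divisible by 3 were more frequent among microexons than among longer exons. They made up 54.5% of the 573, against 45% of the 7242 exons of 31 to 60 nt and 39.5% of all internal exons under the same read rule. Among variable microexons the share was 71.9% and among constitutive ones 54.8%. The peaks of the length distribution were at 24, 27 and 30 nt, with 56, 98 and 108 exons. By position, 521 microexons lay within coding sequence, 15 partly, 7 in 5′ UTRs, 1 in a 3′ UTR and 8 in noncoding transcripts. None of the 288 coding exons of a length divisible by 3 holds an in-frame stop codon, which their place within annotated coding sequence fixes in advance. Over annotated microexons with enough reads, introns after the 79 variable ones were longer, with a median of 1856 nt against 690 nt after the 187 constitutive ones, and introns before them had medians of 1215 and 981 nt. Their GC content was similar, with medians of 48% and 46.4%. These are descriptions over exons, which are not replicates of a condition.

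**Figure D1:**
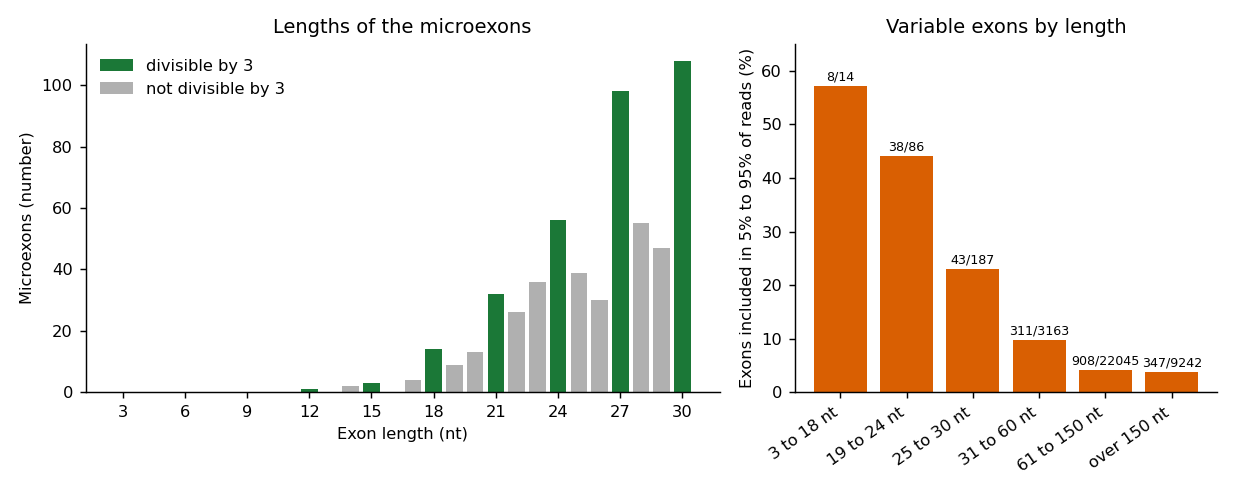
The left panel counts the 573 microexons by length in nt, with lengths divisible by 3 in green. The right panel gives the percentage of exons with 20 or more spanning reads in each library that were included in 5% to 95% of reads, with the counts above the bars, falling from 57.1% at 3 to 18 nt to 9.83% at 31 to 60 nt.

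Annotated exons of under 10 nt were spanned by reads and never read as included. The annotation places 35 internal exons of 3 to 9 nt where each library had 20 or more spanning reads, and 0 of them had an including read. At 10 to 18 nt, 15 of 80 were included in each library and 61 had 0 including reads in both. At 19 to 24 nt the counts were 84 and 36 of 126, and at 25 to 30 nt 182 and 14 of 198. Casq2, the slow-fibre and cardiac calsequestrin, has an annotated 9-nt exon with 0 of 399 and 0 of 325 reads, which allows an inclusion of up to 0.752% and 0.923%. The 8-nt exon of fast troponin T, Tnnt3, had 0 of 609 and 0 of 645 reads, which allows up to 0.493% and 0.465%. Microexons of trafficking proteins in the same length range were also unread: 6 nt in the clathrin adaptor Ap2m1 (0 of 28 and 29 reads), 6 nt in Pacsin2 (0 of 74 and 42) and 8 nt in Itsn1 (0 of 58 and 20). For 5 of the 35 exons no annotated intron skips them, yet all their spanning reads did. Among those, a 7-nt exon of fast troponin I, Tnni2, had 0 of 2457 and 0 of 1460 reads, a 9-nt exon of Col6a1 had 0 of 404 and 0 of 232, and an 8-nt exon of the lipid transfer protein Pitpnb had 0 of 60 and 0 of 40. A count of 0 here is a property of the deposited models, and the part played by alignment and model building in it was not tested. Only 6 exons of 3 to 9 nt had reads in any model, and 1 of them had reads in both libraries.

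**Figure D2:**
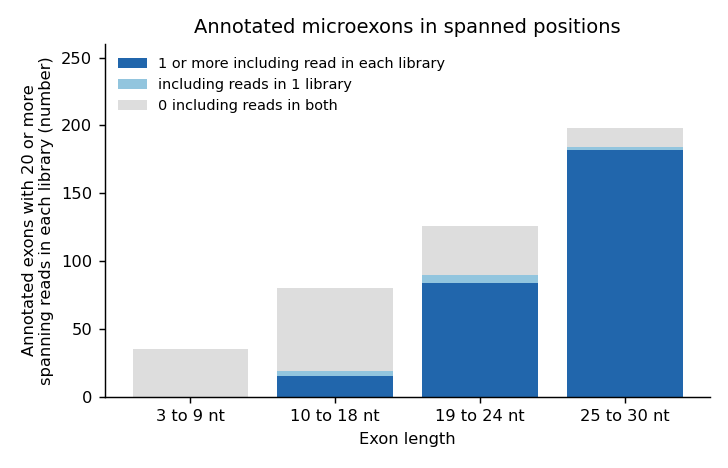
Bars count annotated internal exons with 20 or more spanning reads in each library, by exon length, split by whether including reads were found in each library, in 1 library or in neither. All 35 exons of 3 to 9 nt fall in the last class, against 14 of 198 at 25 to 30 nt.

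The contractile apparatus supplied the most abundant constitutive microexons. Myosin heavy chains share an exon of 28 nt, found in 10 Myh genes with 64.3% to 96.4% identical bases over the 45 pairs, and all 6 with enough reads were constitutive. Myh4, the fast IIB chain, included it in 99.5% of 18718 reads in replicate 1 and 99.2% of 3638 in replicate 2. Myh1, the fast IIX chain, had 99.4% of 7401 and 99.2% of 2754 reads, and slow Myh7 99.6% of 743 and 100% of 430 reads. The perinatal chain Myh8, whose exon is the one printed last above, was the lowest of the 6 at 97.4% of 683 and 96.5% of 143 reads. Embryonic Myh3 contained it in all of 110 and 33 reads and Myh2, the IIA chain, in 99.6% of 560 and 100% of 225 reads. Mybpc2, the fast myosin-binding protein C, included a 30-nt exon in 99.9% of 6533 and 99.8% of 3358 reads, and Tnni2 a partly coding 30-nt exon in 99.9% of 2070 and 99.8% of 1118 reads.

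Other protein families of the sarcomere and matrix also carry microexons of 1 length in several members. The myomesins, which crosslink thick filaments at the M-band, share a length of 23 nt, with inclusion in 98% of 783 and 97.8% of 359 reads for Myom1 and 99.3% of 1127 and 99.6% of 490 reads for Myom2. Myom3 had only 12 and 1 spanning reads. The TRIM ubiquitin ligases share 23 nt as well, and Trim54 (99.2% of 237 and 100% of 174 reads), Trim63, the muscle-atrophy ligase MuRF1 (94.4% of 144 and 95.7% of 115 reads), and Trim35 (97.6% of 872 and 97.5% of 670 reads) were constitutive. Triadin, Trdn, which anchors calsequestrin to the calcium release channel, has 13 microexons, more than any other gene. A 24-nt exon and its 21-nt version with the same end are counted separately. Of these, 11 had enough reads and 10 were constitutive. Collagens hold 21 microexons in 9 genes, 15 of them of 27 nt, the length of a run of glycine-led triplets in the triple helix, and 13 of the 16 with enough reads were constitutive. Col4a1, a basement membrane collagen, included its 27-nt exons in 99.1% of 791 and 97.5% of 242 reads and in 99.9% of 741 and 100% of 225 reads. Selenow, a small selenoprotein abundant in muscle, completed the 12 constitutive microexons with the most including reads, at 98.7% of 476 and 99.6% of 535 reads for an exon of 25 nt. A total of 84 of the 287 microexons were included in every spanning read of both libraries.

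Among genes of the contractile apparatus, skipping on a large scale was found in light chains and slow troponin T. Myl1 encodes the fast essential light chains, of which a long and a short form start at different promoters and use alternative exons. Its 25-nt exon was included in 61.1% (60.2 to 62) of 10496 reads in replicate 1 and 69% (68.1 to 69.9) of 10634 in replicate 2, with 95% Wilson intervals in parentheses. Its 28-nt exon had 37.8% (36.9 to 38.7) of 10722 reads in replicate 1 and 30.1% (29.3 to 31) of 10834 in replicate 2. The exons complement each other in both libraries, and replicate 2 held more of the 25-nt form. Both lengths leave the same remainder on division by 3, so either exon alone gives the same downstream frame. The introns before them differ, with 733 nt before the 25-nt exon and 10518 nt before the 28-nt exon. Tnnt1, the slow troponin T, included a 22-nt exon in 47% of 66 reads in replicate 1 and 48.1% of 52 in replicate 2. The mean of 47.5% is 100% when skipping introns must join splice sites used by including models. Myl6, the nonmuscle essential light chain, included a 20-nt exon, annotated in a noncoding transcript, in 21.7% of 120 reads in replicate 1 and 12.2% of 131 in replicate 2.

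The 28-nt length recurs in the other essential light chains, where it was constitutive. Myl3, the slow and ventricular chain, included its 28-nt exon in 100% of 129 and 98.8% of 166 reads, and Myl6 a 28-nt exon in 100% of 117 and 100% of 124 reads. Myl4, the embryonic and atrial chain, had 17 of 17 and 33 of 33 reads, too few in replicate 1 for a class. Further microexons of the contractile and membrane-linked apparatus were also constitutive: 30 nt in slow troponin I, Tnni1 (100% of 131 and 100% of 160 reads), 24 nt in the Z-disc protein Mypn (98.4% of 188 and 100% of 80 reads), 24 nt in filamin C, Flnc (100% of 79 and 100% of 32 reads), 27 nt in alpha sarcoglycan, Sgca (100% of 151 and 100% of 113 reads), and 27 nt in Tnnt1 (96.7% of 61 and 97.9% of 47 reads). Dysferlin, Dysf, which reseals the fibre membrane, held 2 exons of 30 nt in every read, 55 and 20 spanning reads for the first and 56 and 20 for the other. Pdlim5, a Z-disc adaptor, had 98.1% of 260 and 92.6% of 243 reads for 18 nt.

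Calcium-handling and calcineurin genes held 5 variable microexons. The 30-nt exon of Trdn printed above was included in 42.2% (34.5 to 50.3) of 147 reads in replicate 1 and 42.9% (35.5 to 50.6) of 161 in replicate 2, a mean of 42.5% ± 0.481 (SD, n = 2). The other 10 microexons of Trdn with enough reads were above 95% in the same libraries, so among these 11 it was the only one skipped often. The remaining 2, with few reads, were included in 9 of 14 and 11 of 15 reads (21 nt) and in 4 of 7 and 7 of 10 reads (28 nt). The 21-nt exon is a version of a constitutive 24-nt exon with the same end, and reads with that version are not counted as skipping. Together with the 27-nt exon before them, 132 and 145 reads held the 24-nt version and only 9 and 11 the 21-nt one. Calcineurin is the calcium-dependent phosphatase that controls fibre type programmes. Its catalytic subunits Ppp3ca and Ppp3cb share the 30-nt exon, included in 85.4% of 349 and 87.8% of 255 reads of Ppp3ca and 82.4% of 34 and 91.2% of 34 reads of Ppp3cb. The remaining subunit Ppp3cc also held a microexon of 30 nt, which was not among the variable ones. A further 27-nt exon of Ppp3cb, not in the annotation, was included in 41.7% of 36 and 52.8% of 36 reads. Atp2a2, the slow-fibre and cardiac calcium pump, contained an 18-nt exon in 95.3% of 172 and 91.7% of 120 reads. Its few skipping reads used introns with an end that is not an annotated splice site, and without such introns inclusion was 100% in both libraries.

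Transcription factors and other proteins with a role in muscle ranged from intermediate to nearly full inclusion. The MEF2 factors drive muscle genes, and their short acidic exon, known as the beta exon, is in most muscle transcripts. Mef2a included its 24-nt exon in 83.1% of 59 reads in replicate 1 and 73.1% of 52 in replicate 2. Mef2d had 91.8% of 97 and 89.2% of 65 reads for a 21-nt exon, and 97.8% and 95.1% when only introns with annotated ends counted as skipping, which is above the limit for a variable exon. Anxa6, a calcium-dependent membrane-binding annexin, included its 18-nt exon in 77.7% (73.6 to 81.3) of 457 reads in replicate 1 and 77.4% (72.9 to 81.3) of 380 in replicate 2, so the libraries differed by less than their intervals. Mapk12, the p38 gamma kinase that is abundant in skeletal muscle, included a 30-nt exon in 80% of 130 and 79.5% of 83 reads. Sgce, the epsilon sarcoglycan of the dystrophin complex, had 63.6% of 33 and 88.2% of 34 reads for 27 nt, the widest gap between libraries among variable microexons. Fbxo40, a muscle ubiquitin ligase subunit, had 94.4% of 72 and 95% of 40 reads for a partly coding exon of 30 nt, and 95.8% and 95% with annotated introns only. Trim55 (MuRF2) included its 23-nt exon in 88.4% of 86 and 87.3% of 79 reads, and in all reads when only annotated introns counted.

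Art3 and Car14, cell-surface proteins of muscle, each held a pair. Art3, of the ADP-ribosyltransferase family, has a 30-nt exon included in 73.3% of 116 and 74% of 100 reads and an unannotated 26-nt version with the same end, included in 32.6% of 46 and 38.1% of 42 reads. Reads with the other version are not counted as skipping, so these 2 percentages have different denominators and do not add up. With the overlapping version added to the denominator, the means were 64.1% for the 30-nt and 12.6% for the 26-nt exon, against 73.6% and 35.4%. Car14, a membrane carbonic anhydrase, has neighbouring exons of 21 and 22 nt, included in 25.9% of 108 and 32.4% of 145 reads and in 26.9% of 108 and 32.4% of 145 reads. The skipping intron in nearly all of those reads has an unannotated end, and with annotated introns alone inclusion was 96.6% and 97.9% for the 21-nt exon.

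In the membrane trafficking list, chosen with earlier results of these data known, 6 of the 8 microexons with enough reads were variable and 2 constitutive. Dnm2, the dynamin that pinches off vesicles and is mutated in a centronuclear myopathy, included its 30-nt exon in 45.7% (36.9 to 54.7) of 116 reads in replicate 1 and 54.8% (43.4 to 65.7) of 73 in replicate 2. Its 12-nt exon was in 4.27% of 117 and 9.33% of 75 reads, a mean of 6.80%, which is 20.8% when only annotated transcripts are counted. Tmed2, a cargo receptor of the early secretory pathway, included a 21-nt exon in 72.4% (68 to 76.3) of 434 reads in replicate 1 and 73.8% (69.7 to 77.6) of 470 in replicate 2. Trappc9, a subunit of a tethering complex at the Golgi, had 59.5% of 84 and 53.1% of 49 reads for 27 nt. The clathrin adaptor subunit Ap1b1 was low, at 5.66% of 53 and 6.98% of 43 reads for 21 nt (mean 6.32%, and 10% without models that TALON classes as incomplete or genomic). Picalm, which assembles clathrin at the plasma membrane, was also low at 7.69% of 26 and 19.2% of 26 reads for 24 nt. Constitutive in the list was the 30-nt exon of the lipid transfer protein Osbpl9, at 97.9% of 94 and 100% of 74 reads. The clathrin adaptor Gga2 likewise kept a 29-nt exon, at 100% of 63 and 100% of 33 reads.

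Proteins of the same pathways outside the list ranged from mostly skipped to mostly included. Dctn1, the large dynactin subunit that links dynein to cargo, included its 21-nt exon in 43.5% (38.5 to 48.6) of 368 reads in replicate 1 and 53.6% (46.3 to 60.6) of 183 in replicate 2. Uso1, the vesicle tether p115, included an unannotated 21-nt exon in 82.9% of 82 and 68.3% of 60 reads. Mia2, which loads large cargo at endoplasmic reticulum exit sites, had 73.5% of 49 and 62.5% of 40 reads for 27 nt, a mean of 68% that is 35.8% with annotated transcripts only. The vesicle-associated proteins Tpd52 and Tpd52l2 had 41.9% of 74 and 39.6% of 53 reads and 45.5% of 77 and 50% of 84 reads for the 27-nt exon that they share. For Tpd52l2 the mean of 47.7% is 29.2% with annotated transcripts only, and 76.9% when skipping introns must join splice sites used by including models. Rilpl1, which acts at lysosomes and cilia, had 52.5% of 80 and 60% of 75 reads for 24 nt. The phosphoinositide phosphatase Mtmr1 had 77.8% of 27 and 71.4% of 21 reads for 24 nt and 77.8% of 27 and 61.9% of 21 reads for 27 nt, and its relative Mtmr3 61% of 59 and 48% of 25 reads for an exon of 27 nt with only 6 bases identical to that of Mtmr1. Ccpg1, a receptor for turnover of the endoplasmic reticulum, contained an unannotated 27-nt exon in 24.4% of 41 and 24.4% of 41 reads, and in a mean of 15.8% without incomplete and genomic models. Dysbindin, Dtnbp1, had 91.5% of 71 and 86% of 43 reads for 23 nt, and 97% and 97.4% with annotated introns only. Borcs7, of a complex that positions lysosomes, had 92.3% of 26 and 88.6% of 35 reads for 21 nt, and was in every read when only annotated introns counted.

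Adhesion and signalling proteins also carried skipped microexons, most of them divisible by 3. Fermt2, the integrin activator kindlin-2, has unannotated exons of 21 and 24 nt, included in 37.8% of 135 and 39.2% of 130 reads and in 7.41% of 135 and 8.46% of 130 reads. The mean of 7.93% for the 24-nt exon is 20.6% when skipping introns must join splice sites used by including models. Ptk2, the focal adhesion kinase, had 25% of 40 and 22.2% of 27 reads for 21 nt and 5.13% of 39 and 18.5% of 27 reads for 18 nt, both annotated in noncoding transcripts. Ppfibp1, a liprin of cell-matrix contacts, had 16.3% of 43 and 15% of 20 reads for 30 nt. The polarity kinase Mark2 included its 27-nt exon in 26.5% of 49 and 25.9% of 27 reads, while its paralogue Mark3, with 77.8% identical bases, had 95.5% of 89 and 97.6% of 85 reads. The gap between the paralogues was wider than the gap between libraries in either. Mast2, a microtubule-associated kinase, had 44.7% of 94 and 40.9% of 44 reads for 21 nt, and the guanine nucleotide exchange factor Arhgef10l 78.2% of 78 and 82.9% of 41 reads for 15 nt. The Mast2 mean of 42.8% is 22.6% with annotated transcripts only. Casein kinase Csnk1g3 had 86.2% of 29 and 91.3% of 23 reads for 24 nt.

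Receptors and junction proteins ranged as widely. The receptor tyrosine kinase Axl included a 27-nt exon in 84.3% of 121 and 75.6% of 86 reads, and the receptor phosphatase Ptpra one of 27 nt in 20% of 50 and 15.6% of 45 reads. Cd47, the ligand that inhibits phagocytosis, had 8.33% of 60 and 20% of 55 reads for 25 nt. Pecam1, the endothelial adhesion receptor, had 34.4% of 64 and 38.5% of 26 reads for 23 nt. Lrrfip1, a nucleic acid sensor that also binds actin regulators, had 86% of 143 and 78.2% of 78 reads for 18 nt. Tjap1, of tight junctions, had 23.7% of 59 and 17.8% of 73 reads for 30 nt. The scaffold Mpp3 had 92.9% of 98 and 93.1% of 58 reads for 21 nt, and 96.8% and 96.4% with annotated introns only.

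Genes of RNA processing and chromatin followed. Hnrnpc, an RNA-binding protein of the nucleus and the only listed splicing regulator with a microexon, included a 26-nt exon of its 5′ UTR in 48.5% of 33 and 56% of 25 reads. Luc7l2, a partner of the U1 particle, had 48.1% of 52 and 58.1% of 31 reads for 30 nt, a mean of 53.1% that is 14.4% without incomplete and genomic models, and the splicing factor Prpf18 13.3% of 30 and 31% of 29 reads for 27 nt in a noncoding transcript. Cyclin L2, Ccnl2, contained an unannotated 14-nt exon in 20% of 35 and 30.4% of 23 reads, a mean of 25.2% that is 11.7% with overlapping exons in the denominator. Fip1l1, of the polyadenylation complex, had 83.3% of 30 and 69% of 29 reads for 27 nt. Taf12, of the general transcription factor TFIID, contained an unannotated 23-nt exon in 10.8% of 37 and 2.38% of 42 reads. The nucleosome-binding protein Hmgn1 had 94.8% of 58 and 93.9% of 49 reads and 93.1% of 58 and 93.6% of 47 reads for 2 exons of 30 nt, and every read contained them when only annotated introns counted. Suds3, of a histone deacetylase complex, had 91.2% of 68 and 86% of 43 reads for 22 nt, and 98.4% and 97.4% with annotated introns. The histone methyltransferase Kmt5c had 90% of 30 and 100% of 20 reads for 20 nt, and 96.4% and 100% with annotated introns. Ythdf3, a reader of methylated RNA, had 97.6% of 42 and 91.9% of 37 reads for 25 nt.

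Protein synthesis, transport and turnover genes held a further set. Mars, the methionyl-tRNA synthetase, included a 24-nt exon in 64.8% of 88 reads in replicate 1 and 66.3% of 86 in replicate 2. The nuclear import receptor Ipo11 had 38.5% of 26 and 33.3% of 27 reads for 27 nt. The ubiquitin ligase Herc3 had 57.5% of 40 and 58.1% of 31 reads for 24 nt, but none of its skipping introns had annotated ends on both sides, and with such introns alone inclusion was 100%. Fbxo25, a ubiquitin ligase subunit, had 54.5% of 22 and 60% of 20 reads for 27 nt, and the ligase Rnf185 89.3% of 28 and 93.3% of 30 reads for 19 nt. The SUMO protease Senp6 had 90% of 50 and 92.6% of 27 reads for 21 nt. The other 3 genes of this set were above 95% with annotated introns only: the reinitiation factor Denr went from 91.7% of 24 and 92.9% of 28 reads to 100% and 96.3%, the DNA repair complex subunit Babam1, from 93% of 57 and 96.4% of 55 reads to 96.4% and 96.4%, and the cochaperone Sugt1, from 92% of 50 and 93.2% of 44 reads to 100% in both libraries.

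Metabolic, matrix and remaining genes completed the 89. Acly, the ATP citrate lyase that supplies acetyl-CoA, included a 30-nt exon in 50% of 82 reads in replicate 1 and 41.8% of 55 in replicate 2. Gpcpd1, which breaks down glycerophosphocholine, contained an unannotated 21-nt exon in 70.3% of 74 and 63.1% of 65 reads. Uckl1, a uridine kinase relative, contained an unannotated 20-nt exon in 91.7% of 60 and 90% of 40 reads, and 96.5% and 94.7% with annotated introns. The amino acid transporter relative Slc38a10 had 20.3% of 64 and 18.2% of 33 reads for 24 nt. Of less known membrane proteins, Tmem184b had 44.1% of 59 and 36.8% of 57 reads for 21 nt, Rhbdl3 75.9% of 29 and 75% of 20 reads for 24 nt and Lysmd4 18.4% of 38 and 16.7% of 36 reads for a partly coding exon of 26 nt. The matrix genes lay near the upper limit: Col6a2 had 95.9% of 218 and 93.5% of 77 reads and 95.8% of 215 and 92.1% of 76 reads for 2 exons of 27 nt, Col18a1 83.8% of 74 and 89.7% of 29 reads, elastin (Eln) 96.4% of 83 and 93.5% of 46 reads and Fndc1 91.1% of 56 and 90.3% of 31 reads. The surface glycoprotein Bsg had 95.4% of 835 and 94.1% of 802 reads for 25 nt, Gkap1 94.1% of 34 and 90% of 20 reads for 23 nt and Ccdc28b 90% of 30 and 96.8% of 31 reads for 23 nt. For all of these from Col6a2 to Ccdc28b, every skipping read used an intron with an unannotated end, so inclusion with annotated introns alone was 100%.

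Over the 89 variable microexons, 62 stayed within 5% to 95% when skipping was counted only through introns with annotated ends, a setting chosen after seeing the data. Of the 27 that did not, 15 in 13 genes had 0 skipping reads left, 11 were above 95% with skipping reads left, and 1, in Rhbdl3, had under 20 spanning reads in a library. With models of annotated transcripts alone, 14 of the 89 remained variable. The exons of Myl1, Trdn, Dnm2, Dctn1, Tmed2, Anxa6, Ppp3ca and Mef2a were among the 62.

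**Figure D3:**
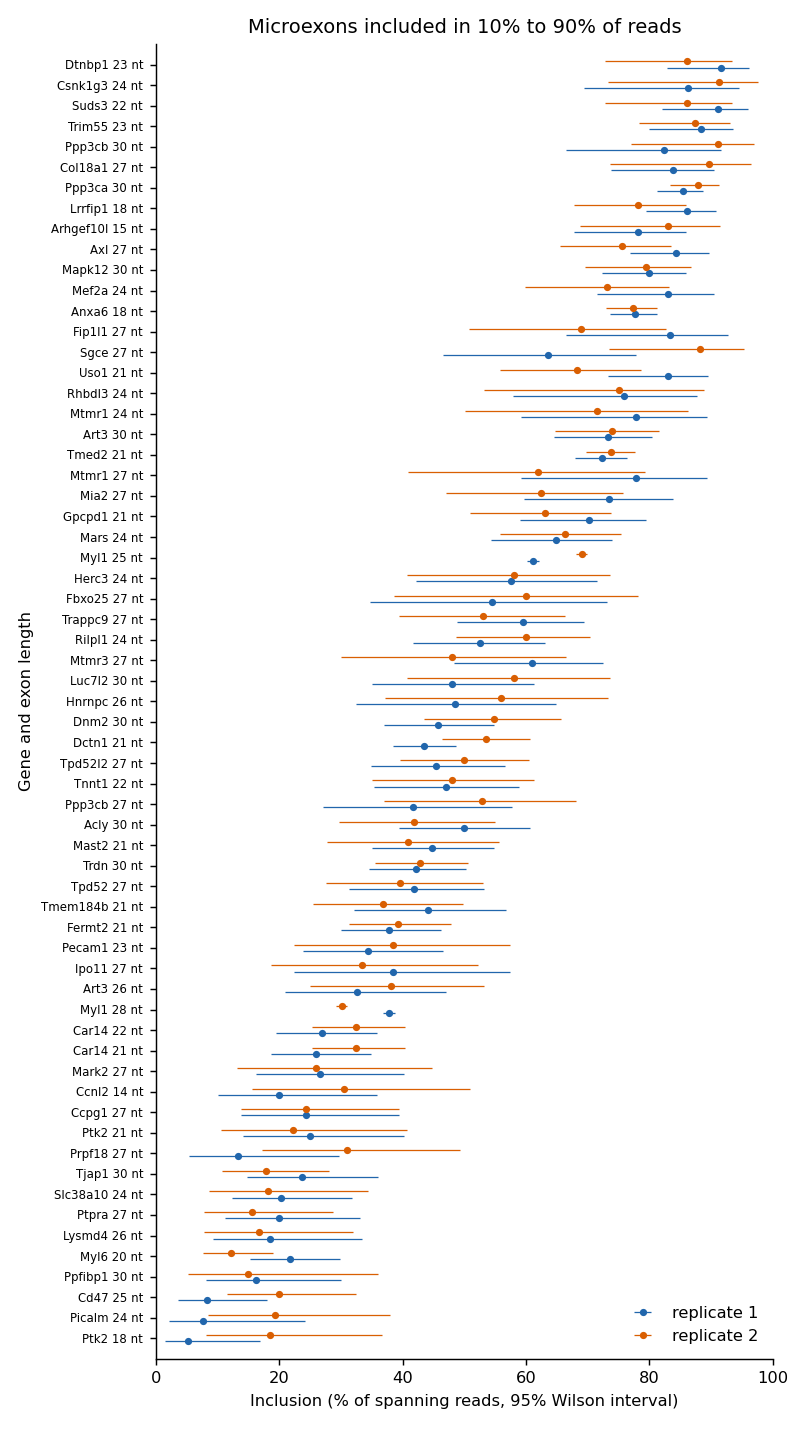
Points give inclusion in percent of spanning reads for the variable microexons with a mean of 10% to 90%, ordered by that mean, in replicate 1 (blue) and replicate 2 (orange), with 95% Wilson intervals as bars. The intervals of the libraries overlap for 87 of the 89 variable microexons, and for the 2 of Myl1, the narrowest here, they do not.

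The 286 microexons with fewer reads include several of cytoskeletal and signalling proteins, given as counts of including and spanning reads. The actin regulator Abi1 included a 15-nt exon in 17 of 22 and 12 of 18 reads. Alpha spectrin, Sptan1, included a 15-nt exon in 10 of 25 and 10 of 16 reads, beside an 18-nt exon present in all 27 and 27. The related kinases Mink1 and Tnik had 24-nt exons in 11 of 29 and 2 of 16 reads and in 7 of 21 and 3 of 13. Filamin A, Flna, had 18 of 49 and 7 of 18 reads for 24 nt. Stim2, a calcium store sensor, had 13 of 36 and 4 of 12 for 24 nt. The smooth muscle heavy chain Myh11 had 7 of 21 and 1 of 2 reads for 21 nt, an exon apart from its 28-nt one. Ppp3cc, the remaining calcineurin catalytic subunit, had 4 of 13 and 2 of 7 reads for 27 nt. These examples were chosen after their values were seen, and their depth gives no class.

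The 10 rare microexons were mostly in genes with many reads, where a small share is still several reads. The fast troponin T gene Tnnt3 held an 18-nt exon in 1.01% of 595 and 0.468% of 641 reads and a 19-nt exon in 5.90% of 610 and 3.40% of 647 reads. Cacnb1, the beta subunit of the muscle calcium channel, held a 20-nt exon in 0.887% of 451 and 0.843% of 356 reads. Gnas, the stimulatory G protein subunit, had 1.98% of 252 and 1.19% of 168 reads for 24 nt in a noncoding transcript. The prion protein gene Prnp had 1.37% of 146 and 5.74% of 122 reads for 28 nt in a noncoding transcript, and Nrbp1 1.41% of 142 and 5.41% of 148 reads for 24 nt. In the remaining 4, Eif5a, Mrpl33, Lamtor1 and Sf3b3, the mean ranged from 0.756% to 3.99%. A rare exon had to reach 5 including reads to be kept, so a low share could be seen only in deeply read genes.

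Unannotated microexons were few and rested on few reads. The 21 held 727 of 122482 including reads (0.594%), with a median of 20 including reads each against 38.5 for annotated ones. For 12 neither splice site is annotated and for 9 a single site is. Of the 13 with enough spanning reads, 10 were variable, 2 rare and 1, in the mitochondrial translation gene Ptcd3, constitutive at 100% of 53 and 96.6% of 58 reads for 25 nt. Fermt2, Gpcpd1, Uso1, Uckl1 and Ptcd3 had the most including reads. At Fermt2 the 21-nt exon had 51 including reads in each library (chromosome 14, 45462715 to 45462735, minus strand), and at Gpcpd1 the 21-nt exon had 52 and 41 (chromosome 2, 132541145 to 132541165, minus strand). At Uso1 the 21-nt exon had 68 and 41 (chromosome 5, 92183482 to 92183502, plus strand). Of the 21, 9 have a length divisible by 3, among them these 3, the Ppp3cb exon and the Ccpg1 exon.

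Long reads show which microexons occur in the same molecule, and 134 pairs in 43 genes had 20 or more reads over both exons in sum. In 72 pairs of 17 genes both exons were constitutive, and both were present in 90% or more of reads in each library: Col18a1, Col4a1, Col6a1, Cyb5b, Dysf, Eln, Gtf2h3, Gtf2i, Hsd17b4, Lmo7, Nap1l1, Nap1l4, Pecam1, Rpl41, Sarnp, Trdn and Trim27. In 28 pairs a variable exon stood with a constitutive or less read one, in Art3, Col18a1, Col6a2, Eln, Mia2, Myl6, Pecam1, Tjap1, Tnnt1 and Trdn. The remaining 24 pairs included a less read exon, in Col16a1, Colq, Dpy19l1, Gtf2ird1, Map2k5, Mau2, Myh11, Nbr1, Prpf40b, Sptan1, Srgap2 and Trdn. In 10 pairs both exons were variable or rare, and these showed 3 kinds of arrangement.

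In the first kind the exons were seldom or never in the same read. Of 10492 Myl1 reads in replicate 1, 6282 held the 25-nt exon alone, 3924 the 28-nt exon alone, 128 both and 158 neither. Replicate 2 had 7185, 3109, 152 and 185 of 10631. Exactly 1 of the Myl1 exons was thus in 97.3% and 96.8% of reads. In Dnm2, 53 and 40 reads held the 30-nt exon alone, 5 and 7 the 12-nt exon alone, 58 and 26 neither, and 0 of 116 and 0 of 73 held both. Whether the Dnm2 exons occur apart beyond what their own inclusion gives was not tested.

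In the second kind the exons went together. Car14 reads held both the 21-nt and the 22-nt exon in 28 and 47 cases, neither in 79 and 98, and the 22-nt exon alone in 1 and 0. The sum of both Car14 lengths is not divisible by 3. Mtmr1 reads held both exons in 21 and 13 cases, neither in 6 and 6, and the 24-nt exon alone in 0 and 2. Both Col6a2 exons were present in 206 and 70 reads and absent together in 9 and 5, and no read held 1 of them. Both Hmgn1 exons were present in 54 and 44 reads and absent together in 3 and 3, with 1 and 0 reads for the downstream exon alone. For Col6a2, Hmgn1 and nearly all Car14 reads, the joint skip used an intron with an unannotated end.

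In the third kind 1 exon was found only with the other. Each Fermt2 read with the 24-nt exon also held the 21-nt exon (10 and 11 reads), whereas 41 and 40 reads held the 21-nt exon alone and 84 and 79 neither. Each Ppp3cb read with the unannotated 27-nt exon also held the 30-nt exon (15 and 19 reads), with 12 and 11 reads for the 30-nt exon alone and 6 and 3 for neither. The pairs of Ptk2 and Tnnt3 followed none of these kinds. Ptk2 reads held both exons in 2 and 2 cases and the 18-nt exon alone in 0 and 3. The 21-nt exon was alone in 8 and 4 Ptk2 reads, and 29 and 18 held neither. In Tnnt3 neither rare exon was present in 569 of 580 and 619 of 628 reads. In Trdn the variable 30-nt exon was in 62 of 146 and 69 of 160 reads together with the next 30-nt exon and was missing beside that exon in 83 and 86.

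**Figure D4:**
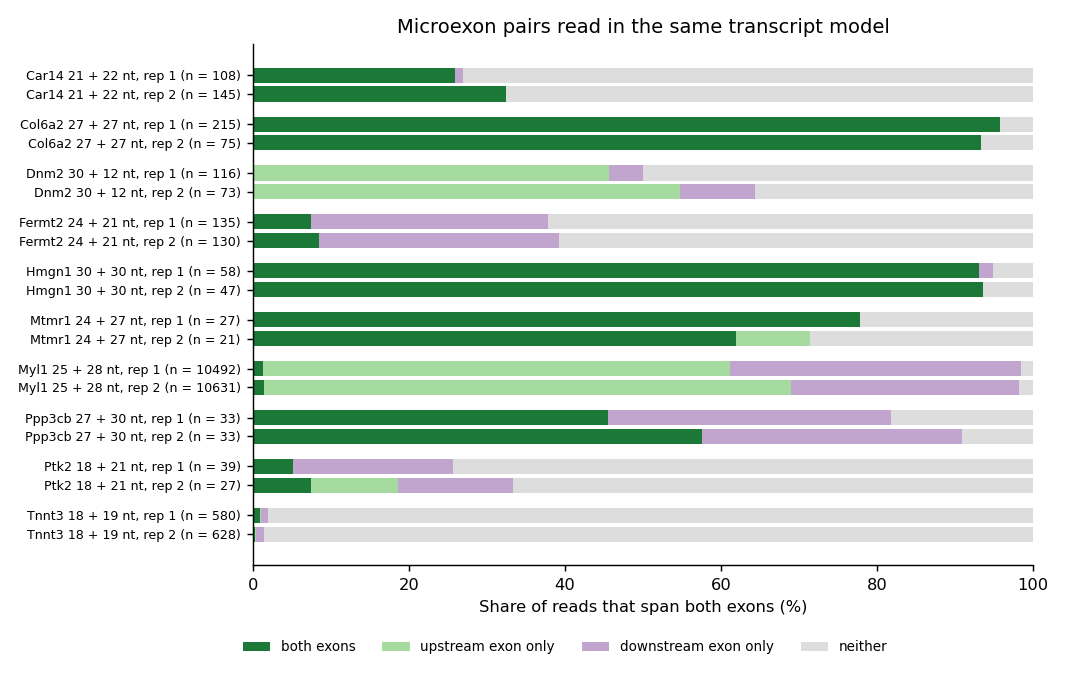
Bars give, for the 10 pairs in which both microexons were variable or rare, the share of reads spanning both exons that held both, the upstream exon alone, the downstream exon alone or neither, in replicate 1 (upper bar) and replicate 2 (lower bar), with the number of reads. Myl1 is almost all single exons, Car14 and Mtmr1 almost all both or neither, and Fermt2 and Ppp3cb lack the upstream exon alone.

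Inclusion was similar in both libraries for most microexons. Over the 89 variable microexons Pearson's r between libraries was 0.971 (n = 89 exons of 2 libraries, a description), 75 differed by under 10 points, 34 had a mean under 50% and 55 a mean of 50% or more. Of the 287 microexons tested, 0 were called different by a two-sided Fisher exact test with Benjamini-Hochberg adjustment over all 34737 internal exons (adjusted p under 0.05 and 10 points or more), and 0.00288% of all internal exons were called. At an unadjusted p under 0.05 there were 8 microexons (2.79%), against 0.429% of all internal exons. An exon without a skipping read in either library cannot reach such a p, yet it counts in the share and in the adjustment. Over all internal exons tested the median inclusion was 100%. These shares therefore do not show that microexons differed more between libraries. Without the 10-point limit the exact test passed 2 of the 287 microexons. Over all internal exons 5 of 34737 (0.0144%) passed, these 2 among them. Both were exons of Myl1, mostly used 1 at a time, so they are not separate events. Myl1 had 10492 and 10631 reads over both exons, against a median of 111 spanning reads in sum for variable microexons. The adjusted p was 5.08e-29 for the 25-nt exon and 1.92e-28 for the 28-nt exon by Fisher's exact test. Its units are reads of 1 library against 1, so these p-values do not include the spread between animals. Replicate 2 was higher by 7.92 points for the 25-nt exon, and the 28-nt exon fell by 7.68 points. The other 6 with an unadjusted p under 0.05 were in Pdlim5, Sgce, Myh4, Dctn1, Tnnt3 and Uso1, all with an adjusted p of 1 by the same exact test. For Dctn1 the unadjusted p was 0.0296 and for Sgce 0.0234. Differences of 10 points or more were seen for 14 microexons, 9 higher and 5 lower in replicate 2, and 0 of these passed the adjusted test. Shifts of 20 points placed in simulated reads were called for only 18 of 200 exons, so differences of 20 points or less would mostly be missed.

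**Figure D5:**
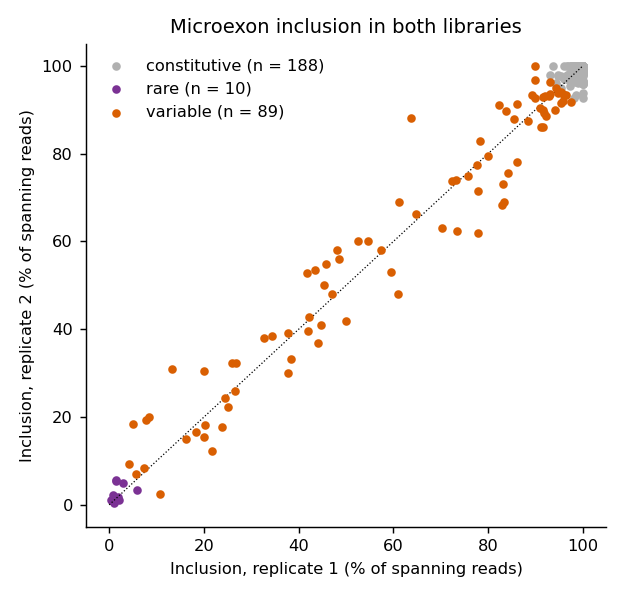
Each point is a microexon with 20 or more spanning reads in each library, with inclusion in replicate 1 on the horizontal axis and in replicate 2 on the vertical axis, both in percent of spanning reads. The 89 variable microexons (orange) lie along the dotted line of equal inclusion, with Sgce at 63.6% and 88.2% farthest from it.

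Reads that contain a microexon were counted against all mouse reads. Replicate 1 had 71225 such reads and replicate 2 had 40448, or 6.22% and 4.29% of all mouse reads. Outside the Myh genes the shares were 3.76% and 3.53%, and Myh4 itself had 23388 and 8871 CPM. Of its 26791 and 8355 reads, a smaller share spanned the Myh4 microexon in replicate 2 than in replicate 1. The part of such a difference in read coverage was not tested. In bulk tissue fewer fibres of a type and less RNA per fibre cannot be told apart. Including reads were summed over exons, so a read with several microexons counts once for each. Of these including reads, 65.6% were assigned to annotated transcripts and 9.75% to incomplete matches of such transcripts. A further 17.8% were assigned to new combinations of annotated splice sites and 6.89% to models with a new splice site. Myl1 alone gave 17.2% of including reads.

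By functional list, microexons of contractile genes were mostly constitutive and those of trafficking and signalling genes mostly variable, as counts over exons without a test. The lists were chosen with earlier results of these data known, so the contrast describes these lists only. It rests on 8 trafficking and 7 signalling microexons with enough reads. In the sarcomere list 25 of 73 genes had a microexon, and of 24 with enough reads 18 were constitutive, 4 variable and 2 rare, with a median inclusion of 99.3%. The calcium-handling list had 7 of 47 genes, with 12 constitutive, 5 variable and 1 rare. The membrane trafficking list had 11 of 54 genes and a median inclusion of 53.3% over 8 microexons. The transcription and signalling list had 10 of 74 genes, with 1 constitutive, 5 variable and 1 rare, and a median of 57.3%. The cytoskeleton list had 9 of 65 genes, with 2 constitutive and 2 variable. The median over all 287 microexons was 98.3%, and over all internal exons it was 100%. None of the 17 nerve and Schwann cell markers had a microexon that passed the rule.

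Among the listed splicing regulators, levels in CPM in replicate 1 and 2 were highest for Rbm24, Mbnl2, Rbm38 and Quaking. The RNA-binding motif proteins were Rbm24 291 and 308, Rbm38 193 and 212 and Rbm20 48 and 48.8 CPM; Rbm24 and Rbm20 are known splicing factors of striated muscle. The muscleblind proteins, which drive the postnatal splicing switch, were Mbnl2 224 and 184 and Mbnl1 60.2 and 53.1 CPM. Quaking, listed as Qk in the annotation, had 171 and 175 CPM. The RBFOX factors were Rbfox2 76 and 40.3 and Rbfox1 26.2 and 19.1 CPM, and the CELF factors, which act against muscleblind at many exons, Celf2 67.2 and 43.5 and Celf1 16.6 and 15.9 CPM. The polypyrimidine-tract proteins, which repress many neuronal microexons, were Ptbp1 28.8 and 29.7, Ptbp2 8.73 and 9.56 and Ptbp3 0.873 and 2.12 CPM. Of the SRRM family, Srrm3 and Srrm4, the activators of neuronal microexons, had 0 reads in both libraries, which allows up to 2.62 and 3.19 CPM, whereas Srrm1 28.8 and 36.1 and Srrm2 4.36 and 4.25 CPM were read. Their partners were Srsf11 47.1 and 53.1 and Rnps1 64.6 and 78.6 CPM. The nuclear ribonucleoproteins were Hnrnpl 89 and 121 and Hnrnpc 34.9 and 32.9 CPM, the SR proteins Srsf5 82.9 and 77.5, Srsf3 81.2 and 75.4, Srsf1 21.8 and 31.9 and Srsf10 21 and 38.2 CPM, and the KH-domain proteins Khdrbs1 54.1 and 55.2, Khdrbs3 5.24 and 13.8 and Nova1 2.62 and 5.31 CPM. The core factors of the 3′ splice site were U2af1 24.4 and 35, U2af2 48 and 30.8 and Sf1 23.6 and 20.2 CPM. Rbfox3, Mbnl3, Nova2 and Esrp1 also had 0 reads in both libraries, and 29 of the 36 listed regulators had reads in both. Whether any regulator acts on a microexon was not tested.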

How the data were processed

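Long-read RNA sequencing of 2 libraries was analysed from the deposited transcript models and their read counts. The values are raw read counts per transcript model and library, deposited by the authors without normalization, and a model is listed where it has 1 or more read. Alignment to mm10 and the use of GENCODE M21 are stated per the deposited descriptions, and model attributes per the file headers are those of TALON. No source used here names the aligner or gives tool versions. Replicate 1 cites pipeline document 3.1 and replicate 2 document 3.0, per the labels, which cannot be told apart from the animals.

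Exons were matched by exact chromosome, strand, start and end. Included reads were summed over models of a gene that hold the exon internally, and skipped reads over models of that gene with an intron across it. Reads of models with a different overlapping exon, or ending short of the position, were not counted. Percentages have 95% Wilson intervals, which cover counting error only, as reads without molecular identifiers are not independent molecules. A count of 0 was taken to allow 3 reads. CPM is reads per 1000000 mouse reads, spike-ins left out. Classes of inclusion need 20 spanning reads in each library. The libraries were compared by Fisher's exact test with Benjamini-Hochberg adjustment over 34737 internal exons, and the test was tested on simulated data (0 of 34537 unshifted exons called).

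The microexons, gene lists and tests were chosen with earlier results of these data known. Named microexons were every variable one, the 12 other microexons with the most including reads, the 5 unannotated ones with the most including reads, any under 10 nt and any called different (none), and the pairs, of which those with 2 variable or rare exons are given in full; the rare microexons, other family members and annotated exons without reads were added after their values were seen. Alternatives changed the read and length minima, the models counted, the skipping introns, the denominator, the spanning minimum and the limits. No replicate could be left out of the comparison of the 2 libraries. Symbols Ttyh and Uba of the lists are not in GENCODE M21, and Qki was read as Qk. A genome sequence was not used here, so splice sites and unannotated exons are printed without sequence. Python 3.11.15, numpy 2.4.6, scipy 1.17.1, pandas 2.3.3 and matplotlib 3.10.9 were used.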

Additional observations from a re-analysis of the deposited data

How the results depend on the processing

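The number of microexons was 573, and 379 with a minimum of 20 including reads or 363 at 3 to 27 nt. Variable microexons numbered 89, and 14 with annotated transcripts only or 38 with 50 spanning reads. They rose to 122 with 10 spanning reads and to 106 with overlapping exons in the denominator, where 17 were gained and 0 lost. Each library alone gave 92 (replicate 2) and 89 (replicate 1). The calls between libraries were 0, and 2 at any difference. Unannotated microexons numbered 21, and 13 or 11 with minima of 10 or 20 including reads. The share divisible by 3 stayed between 51% and 56.5% under the alternatives run. Counting only introns between splice sites used by including models gave 60 variable microexons, of which 59 were among the 89. This setting counts a joint skip of neighbouring exons only for an exon that some models include without its neighbour. Annotated skipping introns, added after seeing the data, gave 62. Depth limits the classes, since 286 of the 573 had too few spanning reads for a class. Leaving out a library cannot be done for the comparison between libraries.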
